A study of Mus musculus with 6 samples.

Results

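The genes described here are those named for the beta subunits of the sodium-potassium pump (Atp1b1, Atp1b2, Atp1b3 and Atp1b4) and the phospholemman gene (Fxyd1). These are 5 of the 43074 gene names in each expression table. They were chosen by gene name, with the difference between the groups in these same libraries already known. Their values in that comparison are therefore a description and carry no test. Poly(A) RNA was sequenced from soleus, a calf muscle used for posture that holds both slow and fast fibres, in 3 WT libraries and 3 libraries of StarD7 mKO mice. StarD7 is a lipid transfer protein that carries phosphatidylcholine to mitochondria. The strain, age and sex of the mice, the promoter behind the knockout and any treatment are not given in the sources used here. The series text counts 3 mice per group, but the labels tie no library to an animal, so the spread between libraries may be in part technical. Levels are in TPM, where each gene's reads are corrected for its length and every library has the same sum.

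The sodium-potassium pump moves sodium out of the cell and potassium into it at the cost of ATP, and in muscle it restores both gradients after each action potential. A glycosylated beta subunit is needed for the pump's catalytic chain to fold and reach the membrane. Phospholemman is a small membrane protein of the FXYD family that holds the pump back until protein kinases A or C phosphorylate it. Atp1b4 stands apart, since in placental mammals its product is known as a protein of the muscle nuclear envelope and not as a pump subunit.

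The promoters of Atp1b4, Fxyd1 and Atp1b1 are shown because their mKO means in TPM were 200%, 88.3% and 107% of WT in turn. Without mitochondrially encoded genes, Atp1b1 was at 116% and Fxyd1 at 95.9%, so Atp1b1 does not stand for an unchanged gene. Atp1b3, at 99.5% in TPM, was nearer to WT and its promoter is not shown. RefSeq (GRCm38.p6) gave a window for 4 of the 5 genes, with none for Atp1b2. Each sequence is the 250 bases before the annotated start, 5′ to 3′ on the gene's strand. Capitals mark matches on either strand to an E-box (CANNTG) and to a CCAAT box.

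The window of Atp1b4 lies at chrX:38315872-38316121 on the plus strand, that of Fxyd1 at chr7:31054854-31055103 on the minus strand and that of Atp1b1 at chr1:164458356-164458605 on the minus strand.
Atp1b4: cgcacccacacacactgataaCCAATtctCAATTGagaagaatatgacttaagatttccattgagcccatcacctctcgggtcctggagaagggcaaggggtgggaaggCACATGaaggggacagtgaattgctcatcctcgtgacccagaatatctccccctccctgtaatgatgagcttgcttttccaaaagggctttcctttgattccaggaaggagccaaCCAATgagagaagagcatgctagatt
Fxyd1: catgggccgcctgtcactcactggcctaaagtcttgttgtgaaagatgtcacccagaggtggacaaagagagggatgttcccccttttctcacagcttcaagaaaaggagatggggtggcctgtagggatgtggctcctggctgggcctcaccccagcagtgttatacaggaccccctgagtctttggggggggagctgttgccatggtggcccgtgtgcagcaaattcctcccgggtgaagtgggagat
Atp1b1: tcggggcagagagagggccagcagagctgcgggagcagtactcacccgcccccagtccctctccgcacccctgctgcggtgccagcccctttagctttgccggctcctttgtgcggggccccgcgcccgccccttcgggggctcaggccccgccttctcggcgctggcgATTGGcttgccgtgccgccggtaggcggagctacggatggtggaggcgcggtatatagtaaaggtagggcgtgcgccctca

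The Atp1b4 window held 2 E-box and 2 CCAAT matches. An E-box match occurs in 66.2% of all 32851 promoter windows of this length and a CCAAT match in 33.8%, so neither is rare. Atp1b1 had 1 CCAAT match and no E-box. The Fxyd1 window held neither, and it also lacked matches to the TATA box (TATAAA, 12.4% of windows), the GC box (GGGCGG, 32.7%), the MEF2 site (2.9%) and the CArG box (1.5%). Atp1b4 likewise had no match to the TATA box, GC box, MEF2 site or CArG box. Atp1b1 had 2 GC box matches, not marked by capitals, and none to TATAAA, the MEF2 site or the CArG box. Only the exact TATAAA was searched for, so the similar stretch tatatag in the Atp1b1 window was not counted. The Atp1b4 window was 48.4% G and C, against 57.2% in Fxyd1 and 70.4% in Atp1b1.

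Reads were recovered from TPM and gene length for 21171 genes. Over these genes the 6 libraries held between 42928774 and 51287999 reads. The 5 genes had between 636 reads (Atp1b4 in WT replicate 2) and 30881 reads (Atp1b1 in WT replicate 1). Stard7, the targeted gene, stood at 87.5, 95.4 and 95.0 TPM in WT and at 21.8, 21.3 and 34.6 TPM in mKO. The share of TPM from mitochondrially encoded genes was 43.6% ± 1.49 in the WT libraries and 48.0% ± 1.05 in those of mKO (SD over 3 libraries each). Because TPM has a fixed sum, leaving these genes out raised the values of all others, and more genes were tested. The median log2 fold change was −0.01 over 12301 tested genes and 0.09 over the 13502 tested without them.

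Atp1b1, which encodes the most widespread beta subunit, was by far the most abundant of the 4 beta genes. It stood at 433, 436 and 419 TPM in WT and at 428, 452 and 499 TPM in mKO. The groups overlapped, because mKO replicate 1 lay between the WT libraries while mKO replicate 3 was the highest of all. The means were 430 ± 9.38 and 460 ± 36.1 TPM (SD, n = 3 each), a log2 fold change of 0.09 (SE 0.06). The mKO mean was 107% of WT in TPM, 108% with median-of-ratios scaling and 109% with upper-quartile scaling. It was 111% as a share of a library's recovered reads and 116% without the mitochondrially encoded genes. The groups overlapped in TPM and under none of these other 4 scalings. The opposite-strand gene Nme7 overlaps Atp1b1, and its means were 0.602 TPM (WT) and 0.521 TPM (mKO).

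Atp1b3, the other widespread beta subunit, had nearly equal means. Its level was 37.2, 39.5 and 35.7 TPM in WT and 35.5, 38.1 and 38.2 TPM in mKO. The groups overlapped, with means of 37.5 ± 1.93 and 37.3 ± 1.54 TPM (SD, n = 3 each). The log2 fold change of −0.01 (SE 0.06) changed sign with the scaling, and it was 0.11 without mitochondrially encoded genes.

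Atp1b2, a beta subunit known from glia and from fast muscle fibres, was lower in every mKO library than in any WT library. It stood at 16.2, 18.7 and 17.5 TPM in WT and at 11.1, 8.75 and 10.3 TPM in mKO. The means were 17.5 ± 1.25 TPM in WT and 10.0 ± 1.19 TPM in mKO, or 57.5% of WT (SD, n = 3 each), a log2 fold change of −0.75 (SE 0.09). Under the 15 other ways of processing the values, the fold change ran from −0.81 to −0.66.

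Atp1b4 showed the opposite picture and the widest spread. It stood at 14.1, 7.23 and 9.06 TPM in WT and at 21.5, 23.7 and 15.7 TPM in mKO. The groups did not overlap, though WT replicate 1 and mKO replicate 3 came close to each other. The means were 10.1 ± 3.57 TPM in WT and 20.3 ± 4.12 TPM in mKO, or 200% of WT (SD, n = 3 each), a log2 fold change of 0.96 (SE 0.23). Its range over the other settings was 0.77 to 1.21.

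Fxyd1 was slightly lower in mKO, with little spread in either group. Its level was 215, 218 and 210 TPM in WT and 189, 193 and 185 TPM in mKO. Every mKO library was below every WT library, and the means were 214 ± 3.77 TPM in WT and 189 ± 4.11 TPM in mKO, or 88.3% of WT (SD, n = 3 each). The size of the log2 fold change of −0.18 (SE 0.04) depended on scaling. The mKO mean was 89.4% of WT with median-of-ratios scaling, 89.6% with upper-quartile scaling and 91.6% in recovered reads. Without mitochondrially encoded genes it was 95.9% of WT. The groups overlapped under none of these scalings.

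**Figure D1:**
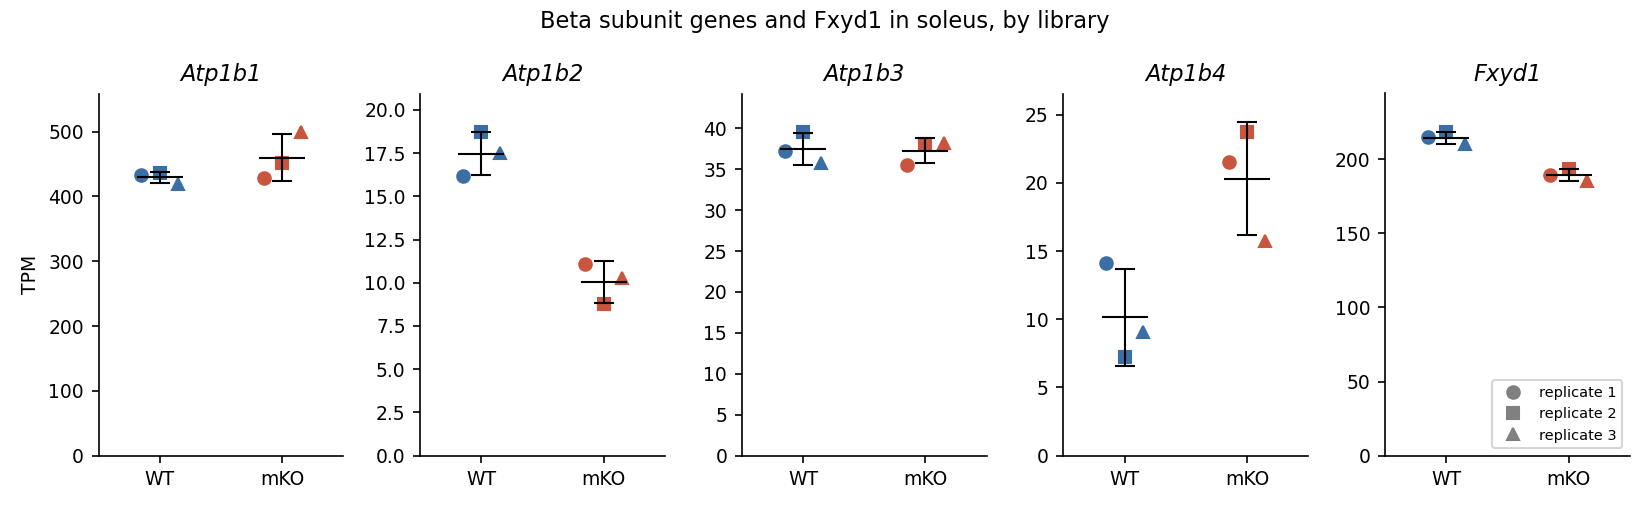
TPM (y axis, from 0) of the 5 genes in each WT and mKO library, with the marker shape giving the replicate number and bars the mean ± SD of 3 libraries. Atp1b2 and Fxyd1 are lower in every mKO library and Atp1b4 is higher, while Atp1b1 and Atp1b3 overlap.

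Limma-trend over all 12301 tested genes called 64 of them at an adjusted p under 0.05, which is 0.520%. All 5 genes were tested and 1 of them, Atp1b2, was called, with nothing to be read from this because the same comparison chose them. That call held in 6 of 15 other settings. It was lost when low values were not filtered, with 3 other scalings, with a replicate block, and without any 1 of the WT libraries or without mKO replicate 1. The groups did not overlap for 3 of the 5 genes, beside 16.0% of all tested genes.

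**Figure D2:**
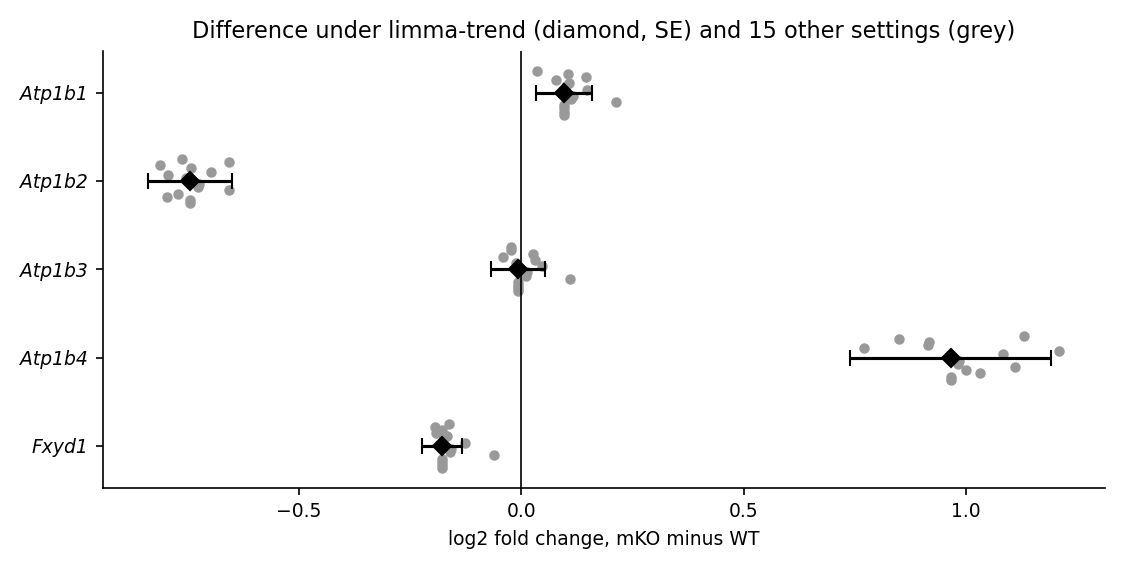
Log2 fold change, mKO minus WT (x axis), of each gene under limma-trend (diamond, bar of 1 SE) and under 15 other settings (grey points). Atp1b2 stays below 0 between −0.81 and −0.66 and Atp1b4 above 0 between 0.77 and 1.21, while Atp1b3 falls on both sides of 0.

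Shares within a library do not depend on how the library is scaled. Of the summed TPM of Atp1b1, Atp1b2 and Atp1b3, Atp1b2 made up 3.32, 3.78 and 3.71% in WT and 2.34, 1.75 and 1.88% in mKO, so the groups did not overlap. Its mean share was 3.60% ± 0.244 over the WT libraries and 1.99% ± 0.307 over those of mKO (SD, n = 3 each). Atp1b1 held 88.7% ± 0.404 in WT and 90.6% ± 0.483 in mKO, and Atp1b3 held 7.73% ± 0.228 and 7.37% ± 0.348. The sum of the 3 genes was 485 ± 11.4 TPM in WT and 507 ± 37.0 TPM in mKO, with overlapping groups. Unlike a share, this sum depends on the scaling, and it is given in TPM alone. Atp1b1, its largest part, had groups that overlapped in TPM but under none of the other 4 scalings.

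Atp1b4 made up 2.82, 1.44 and 1.88% of all 4 beta transcripts in WT and 4.34, 4.54 and 2.79% in mKO. Here WT replicate 1 was just above mKO replicate 3, so the groups overlapped. In order of level, every WT library had Atp1b1, Atp1b3, Atp1b2 and then Atp1b4. In every mKO library Atp1b4 stood above Atp1b2. Fxyd1 amounted to 44.2, 44.0 and 44.5% of the summed beta TPM (Atp1b1 to Atp1b3) in WT and to 39.9, 38.7 and 33.8% in mKO, with no overlap.

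**Figure D3:**
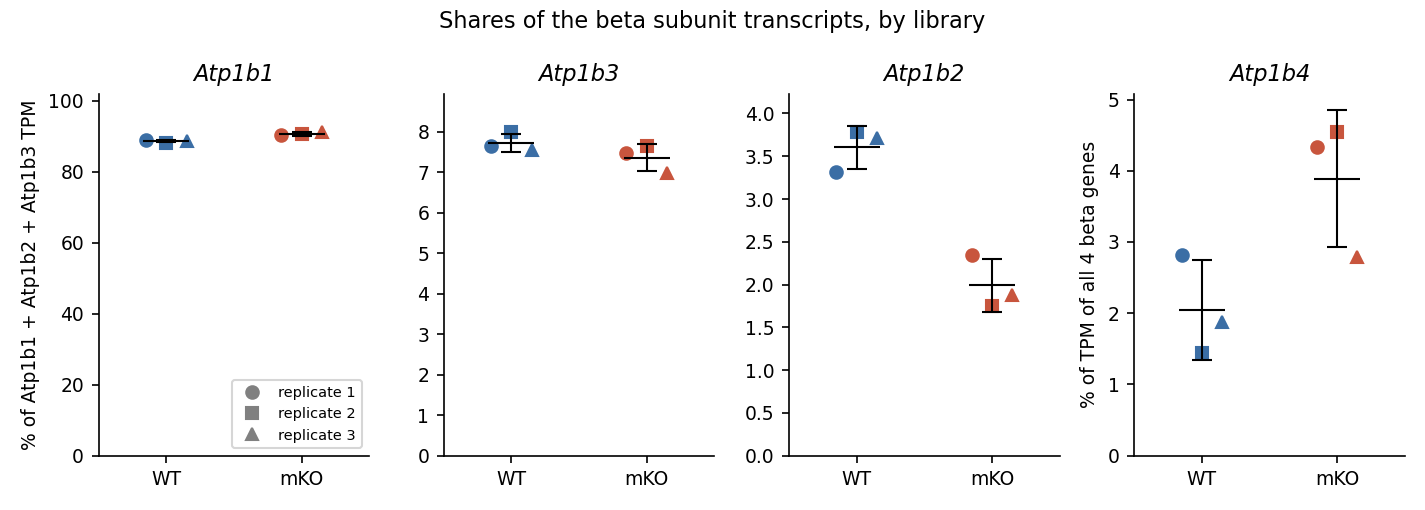
Share of each beta transcript in percent (y axes, from 0), by library, with mean ± SD of 3 libraries; the first 3 panels use the sum of Atp1b1, Atp1b2 and Atp1b3, and the last uses all 4 genes. The Atp1b2 share is at most 2.34% in every mKO library and at least 3.32% in every WT library.

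Other genes of sodium and potassium handling are given from 7 lists, chosen with earlier results of these data known. The counts cover only the 82 genes on these lists and are not a statement on the pathway as a whole. Limma-trend tested 66 of them and called none, with 16 (24.2%) at an unadjusted p under 0.05 beside 10.7% of all tested genes, and limma-voom on recovered reads called none of 57. The groups did not overlap for 15 of 66 (22.7%), beside 16.0% of all genes. The median log2 fold change was −0.05 over the lists and −0.01 over all tested genes. Without mitochondrially encoded genes these medians were 0.07 over 67 tested genes and 0.09 over 13502.

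Among the other FXYD proteins, Fxyd6 and Fxyd7 were the most abundant. Fxyd6 had a log2 fold change of 0.08 (SE 0.05) and Fxyd7 one of −0.26 (SE 0.10), or −0.17 without mKO replicate 1, and neither passed the test. Nkain1, which encodes a protein that interacts with the pump's beta subunit, was the only tested gene of its list, at 0.34 (SE 0.15, limma adjusted p = 0.463), or 0.21 without mKO replicate 1. Of 14 tested kinase and phosphatase genes that bear on phospholemman, none was called. Prkaca, a catalytic subunit of protein kinase A, stood at 0.03 (SE 0.07) and Ppp1r1a, an inhibitor of protein phosphatase 1, at −0.32 (SE 0.14), or −0.19 without mKO replicate 3.

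The ion channel list had 11 tested genes, of which 8 (72.7%) were below 0, beside 55.1% of all tested genes. The groups did not overlap for 5 of them (45.5%), all lower in mKO, beside 16.0% of all tested genes. None was called, and the list's median log2 fold change of −0.08 was 0.03 without mitochondrially encoded genes, when 5 of the 11 were below 0. Scn4b, a sodium channel beta subunit, stood at −0.04 (SE 0.05), and Scn4a, the main sodium channel of skeletal muscle, at −0.26 (SE 0.07, limma adjusted p = 0.199) with no overlap. The lowest value on these lists was that of the potassium channel Kcnc4, at −0.84 (SE 0.14, limma adjusted p = 0.0535), chosen here after its value was seen.

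The remaining lists gave no call. Among carriers and calcium pumps (16 tested), the creatine transporter Slc6a8 stood at 0.07 (SE 0.06) and the amino acid transporter Slc38a2 at −0.51 (SE 0.21), or −0.26 without WT replicate 3. Among membrane anchors (11 tested), the caveolar proteins Cavin4 and Cavin1 stood at −0.005 (SE 0.08) and −0.11 (SE 0.05). Among hormonal regulators (10 tested), the thyroid hormone receptor Thra stood at −0.09 (SE 0.06) and the kinase Sgk1 at −0.27 (SE 0.09).

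**Figure D4:**
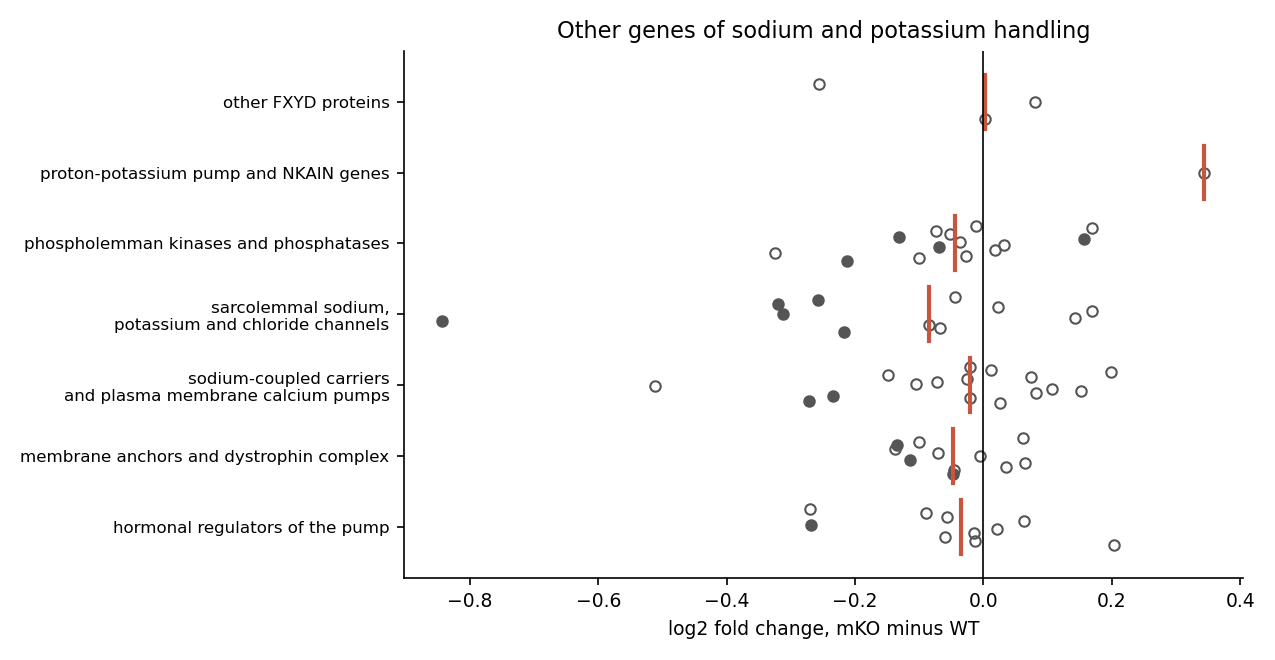
Log2 fold change, mKO minus WT (x axis), of the 66 tested genes on 7 lists (rows), with filled points for genes whose groups do not overlap and a red line at each list's median. Nkain1, at 0.34, is the point farthest to the right and Kcnc4, at −0.84, the one farthest to the left.

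Fibre markers differed between the groups alongside these genes. The 11 fast fibre markers were Myh1, Myh4, Tnnt3, Tnni2, Tnnc2, Actn3, Mybpc2, Mylpf, Atp2a1, Casq1 and Pvalb. They summed to between 42420 and 48588 TPM in WT and between 25304 and 32775 TPM in mKO. Of these, 4 of 11 were called lower and none higher, beside 0.520% of all tested genes called. Marker sums and calls were made in TPM alone, without the other settings. Atp1b2 and this sum were both lower in all 3 mKO libraries. Within WT the libraries had the same order in both. Within mKO both were lowest in replicate 2, but Atp1b2 was highest in replicate 1 and the sum in replicate 3. The 11 slow fibre markers summed to between 17433 and 22808 TPM in WT and between 18843 and 27038 TPM in mKO, with 1 called higher. In each group the library highest in Atp1b4 was also the highest in slow markers (WT replicate 1 and mKO replicate 2), but the lowest in Atp1b4 was the lowest in slow markers only in mKO. The part of fibre makeup in the results on Atp1b2 and Atp1b4 was not tested, and in bulk tissue fewer fibres of a type and less RNA per fibre cannot be told apart.

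**Figure D5:**
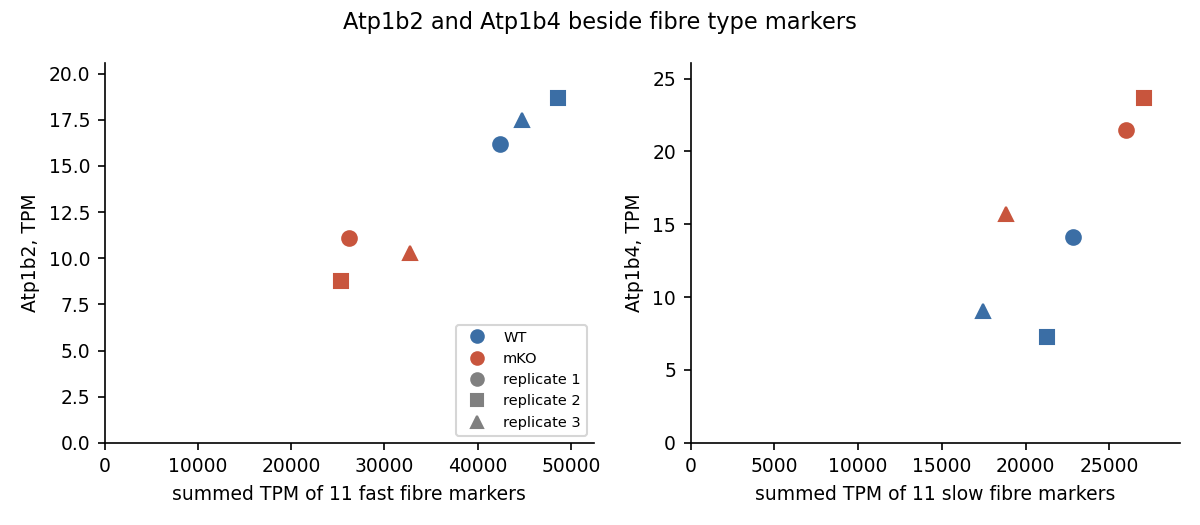
Atp1b2 (left) and Atp1b4 (right) in TPM against the summed TPM of 11 fast and 11 slow fibre markers (x axes), for each library, coloured by group and shaped by replicate. The fast marker sums and Atp1b2 separate the groups without overlap, whereas the slow marker sums overlap.

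The summed levels of the other 8 cell type lists overlapped between the groups, and no marker on them was called. The 10 Schwann cell and nerve markers, which bear on Atp1b2 as a glial gene, summed to between 90.7 and 128 TPM in WT and between 96.0 and 128 TPM in mKO. The 9 endothelial markers summed to between 284 and 297 TPM in WT and between 276 and 285 TPM in mKO. None of the markers on these lists was at 0 in any library.

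The genes most like each member over the 6 libraries were found by Pearson r of log2(TPM + 1), as a description, since the libraries share the genotype difference. Closest to Atp1b2 were Ptx3 (r = 0.9968), Phka1 (0.9957) and Hhatl (0.9939), with log2 fold changes of −0.46, −0.39 and −0.34. Phka1 encodes the muscle alpha subunit of phosphorylase kinase. Closest to Atp1b4 were Bri3bp (0.9943), Il18 (0.9889) and Pcyox1 (0.9818), at 0.21, 0.27 and 0.26. Adding 1 to TPM understates the changes of the low genes among these. In TPM, the mKO mean of Ptx3 (1.26 TPM over all libraries) was 56.0% of WT. That of Il18 (1.02 TPM) was 145% and that of Bri3bp (1.93 TPM) 125%.

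Closest to Fxyd1 were Ppp1r14c (0.9951), which encodes an inhibitor of protein phosphatase 1, Smarcd3 (0.9894) and Ndufb4b (0.9889), at −0.56, −0.21 and −0.18. Closest to Atp1b1 were Ednrb (0.9822), Gmip (0.9817) and Ccdc167 (0.9769), at 0.16, 0.18 and 0.08. Closest to Atp1b3 were Stmn4 (0.9921), Spen (0.9915) and Pot1a (0.9887), whose log2 fold changes lay between −0.02 and 0.01. These genes were picked for their likeness over the same libraries, so their fold changes restate that choice and carry no test.

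Fxyd1 has other FXYD genes as neighbours in the RefSeq gene order. Fxyd7, next to Fxyd1, was at 82.8% of WT with overlapping groups, beside 88.3% for Fxyd1. On the same side, Fxyd5 was at 101% and Usf2 at 94.6% of WT, and on the other side Gramd1a was at 104%, all with overlapping groups. Lgi4, at 111%, and Hpn, at 123%, were higher in every mKO library than in any WT library. None of these 6 neighbours was called.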

How the data were processed

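Per the labels' protocols, poly(A) RNA of soleus was made into directional libraries. The authors deposited TPM, with 1 table for each library. The submitters' processing notes name GRCm39. For the aligner, counter and strand setting, the sources used here give no name. Groups came from the labels. Limma-trend (limma 3.58.1, R 4.3.3) was run on log2(TPM + 1), with genotype alone, for the 12301 genes that reached 1 TPM in 3 or more libraries. P-values were adjusted by Benjamini-Hochberg, with a threshold of 0.05, and the pseudocount understates changes of low genes. The test was checked on simulated data with planted changes larger than most reported here, so the check does not cover small ones. TPM times GENCODE M21 exon length gave whole reads, within 0.05, for 93.12% of 22734 genes. Libraries of a group differed by more than sampling noise, with chi-square over degrees of freedom from 23.2 to 45.6.

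The members and lists were chosen with earlier results of these data known. Named genes were the members, Stard7, each list's called genes or else up to 2 of its most abundant, and the 3 genes most like each member. Alternatives were other filters, pseudocounts, scalings, a replicate block, limma-voom on recovered reads and each library left out. Some genes of the pathway are not reported here, and counts over lists leave them out. Group overlap under other scalings and read shares were added after seeing the data.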

Additional observations from a re-analysis of the deposited data

How the results depend on the processing

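The count of called genes, 64 (12 higher and 52 lower), was 6 with no filter on low values, 41 without mitochondrially encoded genes (21 higher and 20 lower), 41 with median-of-ratios scaling, 39 with upper-quartile scaling and 92 with limma-voom on recovered reads (35 higher and 57 lower). It ran from 4 to 94 with 1 library left out, lowest without WT replicate 2 and highest without mKO replicate 3. The count of members called, 1, was 0 with no filter, without mitochondrially encoded genes, and with either other scaling, and ran from 0 to 1 with 1 library left out. With the replicate number as a block, 21 genes and 0 members were called. Deviations of same-numbered libraries correlated at 0.095, 0.047 and 0.131, each the highest for its number, and the other pairs at −0.093 to 0.001. Not all same-numbered values were above 0.1 and the labels do not pair animals, so the block was kept as an alternative. Whether same-numbered libraries share a batch or a pairing was not tested further. The groups did not overlap for 3 members in TPM, for 5 without mitochondrially encoded genes and for 4 under each of the other 3 scalings (median-of-ratios, upper-quartile and recovered reads). The Atp1b2 share differed by −2.14 percentage points in recovered reads and by −1.61 in TPM.

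Small fold changes changed sign. Without mitochondrially encoded genes, Atp1b3 stood at 0.11, Scn4b at 0.073, Cavin4 at 0.11, Cavin1 at 0.0023, Thra at 0.026, Stmn4 at 0.10 and Spen at 0.10. With median-of-ratios scaling Atp1b3 stood at 0.0103, Cavin4 at 0.0129, Stmn4 at 0.0135 and Spen at 0.0012, and with upper-quartile scaling at 0.0128, 0.0155, 0.0154 and 0.0035. With limma-voom Atp1b3 stood at 0.0454, Scn4b at 0.0075, Cavin4 at 0.0477, Stmn4 at 0.0529 and Spen at 0.0358. With 1 library left out, the values ran from −0.0404 to 0.0311 for Atp1b3, from −0.0169 to 0.1051 for Prkaca, from −0.0636 to 0.0566 for Cavin4, from −0.0409 to 0.0391 for Stmn4, from −0.0545 to 0.0255 for Spen and from −0.0487 to 0.0639 for Pot1a. The cause of these changes was not tested. Atp1b2 had as few as 778 reads in a library and Atp1b4 as few as 636, and 3 libraries per group limit every comparison.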
